A study of Mus musculus with 4 samples.

Results

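Imprinted genes are expressed from the copy inherited from 1 parent. This account covers 41 of them that lie outside the Dlk1-Dio3 locus, at 16 imprinted loci, and asks how their transcripts differed between mouse embryonic stem cells with and without Suz12. Members were found by gene symbol: every probe set whose platform symbol was a member was taken, alone or listed among several symbols. That gave 95 of the 45101 probe sets on the array, for 38 members of 19324 genes with a symbol. Slc22a3, Zrsr1 and Kcnk9 had no probe set under their symbols, so their transcript levels were not analysed here. Of the 95 probe sets, 8 list several symbols: 1 for H19 and Mir675, 6 for Snrpn and Snurf, and 1 for Airn and Igf2r.

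The study used Affymetrix expression arrays, 2 for wild-type embryonic stem cells (WT) and 2 for cells without Suz12 (Suz12KO). Both groups are embryonic stem cells, the pluripotent cells of the early embryo, and the labels give no treatment and no allele beyond the genotype. Per the labels, RNA of 3 clones of each genotype was mixed in equal parts, so the spread between clones was not measured. Whether the arrays of a genotype carry different RNA preparations is not stated, and p-values therefore describe spread between arrays, which may be technical.

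Parental imprints are DNA methylation marks set in egg or sperm at imprinting control regions, and they are kept through early development by the zinc finger protein Zfp57, its partner Trim28 and the DNA methyltransferase Dnmt1. Methylation at such a region blocks or permits a neighbouring promoter, insulator or long noncoding RNA, so that a cluster of genes is read from the maternal or the paternal copy. Suz12 belongs to the core of the histone H3 methyltransferase PRC2, a Polycomb complex that keeps genes silent, and at the Kcnq1 cluster PRC2 has been linked to the silent paternal copies in extraembryonic tissue. An expression array sums both parental copies and cannot tell a change of the active copy from release of the silent one.

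H19 showed the largest change of the members above background, and the first sequences shown are those of the microRNA that the same probe set lists. H19 is a noncoding RNA made from the maternal copy, and miR-675 is cut from it. Both mature forms are given 5' to 3' from RefSeq (GRCm38.p6, minus strand), with the seed, bases 2 to 8, in capitals. The 5p form lies at chr7:142577112-142577133 and the 3p form at chr7:142577078-142577099.
mmu-miR-675-5p: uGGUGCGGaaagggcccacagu
mmu-miR-675-3p: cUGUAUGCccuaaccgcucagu
The seeds differ, so the 2 arms do not form a seed group. An array for long transcripts reads H19 and its precursor together, and the mature microRNA was not measured.

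The second set of sequences comes from Igf2 and Grb10, members that fell in Suz12KO and have 1 start window each with the letters TGCCGC, the core of the motif bound by Zfp57. Each window runs from 250 bases before to 50 after a RefSeq start site, is read 5' to 3' on the minus strand of GRCm38.p6, and has TGCCGC or its reverse complement GCGGCA in capitals. The Igf2 window shown, 1 of 4, lies at chr7:142661222-142661521, the first Grb10 window at chr11:12037371-12037670 and the second, which holds no such letters, at chr11:12027922-12028221.
Igf2: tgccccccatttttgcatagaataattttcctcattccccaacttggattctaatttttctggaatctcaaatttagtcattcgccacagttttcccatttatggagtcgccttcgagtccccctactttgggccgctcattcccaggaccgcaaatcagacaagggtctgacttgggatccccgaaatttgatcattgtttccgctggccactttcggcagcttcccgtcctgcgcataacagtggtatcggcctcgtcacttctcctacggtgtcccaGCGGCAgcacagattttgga
Grb10, first start: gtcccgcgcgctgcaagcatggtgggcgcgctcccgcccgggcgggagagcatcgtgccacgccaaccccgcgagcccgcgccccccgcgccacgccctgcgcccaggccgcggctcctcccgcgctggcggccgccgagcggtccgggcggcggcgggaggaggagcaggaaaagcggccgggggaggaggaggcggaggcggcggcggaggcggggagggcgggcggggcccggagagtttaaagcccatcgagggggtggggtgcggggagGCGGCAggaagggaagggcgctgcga
Grb10, second start: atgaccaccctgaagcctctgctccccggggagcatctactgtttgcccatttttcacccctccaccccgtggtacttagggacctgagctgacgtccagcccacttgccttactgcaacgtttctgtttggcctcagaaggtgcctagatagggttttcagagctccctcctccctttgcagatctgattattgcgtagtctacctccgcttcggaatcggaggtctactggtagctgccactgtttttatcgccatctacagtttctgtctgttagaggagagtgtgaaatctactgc
The first Grb10 window holds 45 CpG dinucleotides and the second 9, and the Igf2 window shown holds 14. The other 3 Igf2 windows, with 2, 24 and 7 CpG dinucleotides, have no match. Grb10 is known to use different starts for its maternal transcript and for the paternal one of neurons, and the probe sets are not assigned to starts here. RefSeq windows were found for 32 members, 47 in all, some of them overlapping, such as 2 of Mest. TGCCGC or its complement stood in 12 of the 47 windows (25.5%), against 11.6% of all 32851 windows of the same length. Counted by gene, 11 of the 32 members had a match (34.4%), against 13.1% of all 27025 genes. Member windows also had more CpG dinucleotides, with a median of 16 against 7. Besides Igf2 and Grb10 the members with a match were Nnat, Mest, Copg2, Nap1l5, Zim1, Snrpn, Plagl1, Commd1 and Slc22a2. None of these others passed the test of expression given below, and Nap1l5 was not tested. Gnas, which also fell, had no match in any of its windows. No window was found for H19, so its start was not searched for these letters. A match is a description of these letters and no sign of binding, and these numbers were not tested.

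Depth on an array is set by signal over background. Bacterial spike probe sets that read low in every array reached 141 and 191 in WT, against 195 and 174 in Suz12KO, and the median of all probe sets was 171 to 202. Suz12 itself was lower in Suz12KO, with signals of 1097 and 1094 in WT, against 217 and 369 in Suz12KO for its brightest probe set (log2 fold change -1.89, SE 0.27, limma adjusted p = 0.0028), and 3 of its 6 probe sets passed as lower. All 10 embryonic stem cell markers passed the test and were higher in Suz12KO. Over the brightest probe sets of all genes, 3.15% were higher by limma. Pou5f1 read 7418 and 7097 in WT against 11657 and 11832 in Suz12KO, and Nanog and Sox2 were also above the spikes in every array, as the cell type label requires.

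Of the 95 probe sets, 73 passed the filter on low signal and were tested, and 22 did not. In the test over 31526 probe sets, 1 member probe set was higher in Suz12KO, 4 were lower and 68 did not pass. The background over all tested probe sets was 2.43% higher and 3.15% lower, 5.58% in all (limma, Benjamini-Hochberg adjusted p under 0.05), so the members' shares of 1.37% and 5.48% lie near it. Those 5 probe sets belong to 4 members: H19 rose, and Igf2, Grb10 and Gnas fell. The median log2 fold change was -0.08 over the tested member probe sets and 0.05 over all tested ones. Setting the median of each array to a common value moved the overall median to -0.12 and the overall split from 766 higher and 993 lower to 379 and 1624, and it gave 8 lower member probe sets, the added ones being of Ndn, Cd81, Nnat and Impact. Without the dependence of variance on signal level limma called 0 of the 73, where 4193 of all probe sets had an unadjusted p under 0.05.

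Brightness set how well a member could be measured. A probe set is called bright here when its mean log2 signal over all 4 arrays is above that of the highest spike of any array (195), and 45 member probe sets for 26 members were bright. Among the bright ones, 26 of 45 (57.8%) were below 0 and the median log2 fold change was -0.10, against 48.7% below 0 and a median of 0.01 for all 20303 bright probe sets. The background for bright probe sets was 3.63% higher and 4.83% lower, 8.46% in all. The median SE was 0.16 for bright member probe sets and 0.78 for the 28 dim ones tested. None of the dim ones passed, and a change of a dim member could have gone undetected.

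**Figure D1:**
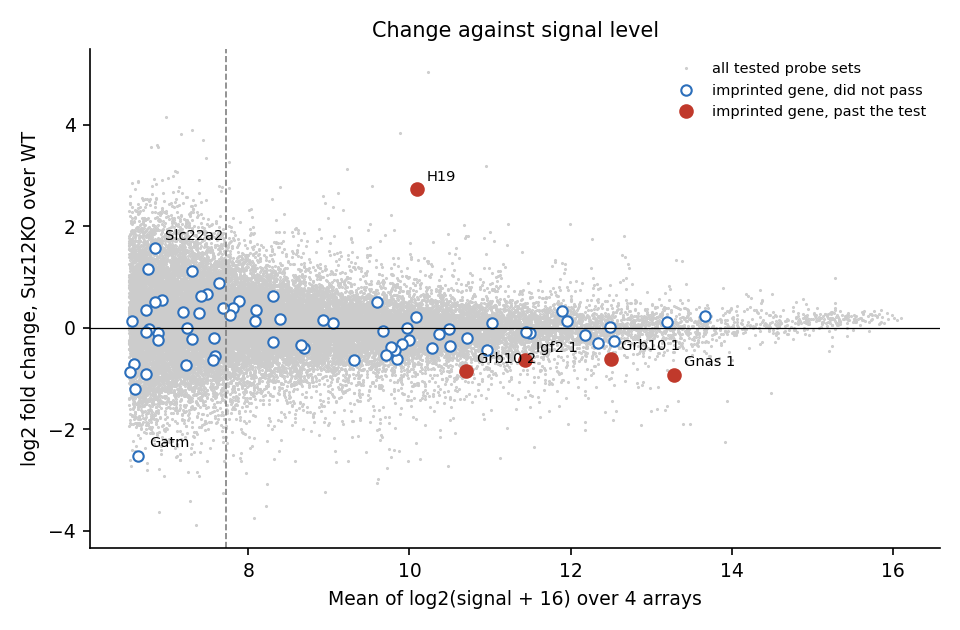
Each point is a tested probe set, with its mean of log2(signal + 16) over 4 arrays on the horizontal axis and its log2 fold change, Suz12KO over WT, on the vertical axis, grey for all 31526 and coloured for the 73 of imprinted genes. The dashed line marks the highest unused spike (195), left of which the members scatter from -2.52 to 1.56 with none past the test. Numbers after a gene rank its probe sets by mean signal.

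The Igf2-H19 locus held the member with the largest rise and 1 of the falls. H19 rose from 442 and 374 in WT to 2974 and 2631 in Suz12KO (probe set 1448194_a_at, which also lists Mir675). Both Suz12KO arrays were far above both WT arrays, and all 4 were above their spikes. The means were 408 ± 48.2 in WT, against 2803 ± 242 in Suz12KO (SD, n = 2 arrays each). H19 thus differed by 2.74 on the log2 scale (SE 0.16, limma adjusted p = 1.23e-05). That is 6.66-fold on the log2(signal + 16) scale.

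Igf2, the fetal growth factor made from the paternal copy next to H19, changed the opposite way. Its brighter probe set (1448152_at) read 3283 and 3628 in WT, against 2393 and 2034 in Suz12KO. The groups did not overlap, and the means were 3456 ± 244 and 2214 ± 254 (SD, n = 2). Its log2 fold change was -0.64 (SE 0.11, limma adjusted p = 0.0084). The other Igf2 probe set read between 38.6 and 128, under the spikes in every array, and was not tested. Averaging both Igf2 probe sets gave -0.67 and ended the call (adjusted p = 0.243), as did testing without the dependence of variance on signal (0.342), which also ended that of H19 (0.215).

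**Figure D2:**
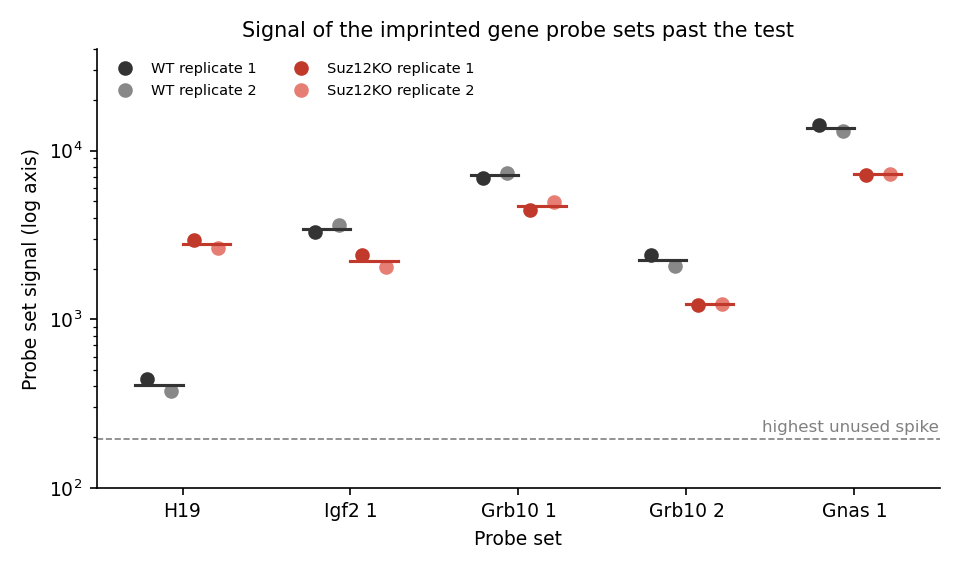
Probe set signal on a log axis for the 5 imprinted gene probe sets past the test, with a point for each array and a line at the mean of each genotype. H19 sits at 374 to 442 in WT, against 2631 to 2974 in Suz12KO, while the Igf2, Grb10 and Gnas probe sets are lower in both Suz12KO arrays than in either WT array.

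Grb10, an adaptor that restrains signalling from the insulin and insulin-like growth factor receptors and is made from the maternal copy outside neurons, fell on 2 of its 3 probe sets. The brightest (1425458_a_at) read 6881 and 7411 in WT, against 4457 and 4936 in Suz12KO, a log2 fold change of -0.60 (SE 0.08, limma adjusted p = 0.0022). The next (1425457_a_at) read 2401 and 2084 in WT, against 1213 and 1238 in Suz12KO, a log2 fold change of -0.86 (SE 0.12, limma adjusted p = 0.0030). On both, the arrays of the genotypes were separate. The remaining Grb10 probe set read 1035 and 1085 against 886 and 814 and did not pass (-0.31, SE 0.16, adjusted p = 0.335). These probe sets share a gene and are not independent, and their suffix marks probes common to several transcripts of it. With a mean over the 3 the Grb10 call was kept (-0.59, limma adjusted p = 0.0126).

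Gnas, which encodes the stimulatory G protein alpha subunit within a cluster of maternal, paternal and biallelic transcripts, had the largest fall among bright member probe sets. Its brightest probe set 1450186_s_at read 14288 and 13124 in WT, against 7130 and 7325 in Suz12KO. Every Suz12KO value was thus well under both WT values, with a log2 fold change of -0.92 (SE 0.07, limma adjusted p = 5.96e-05). The other 4 Gnas probe sets lay near or under the spikes, between 8.13 and 325. The 2 of them that were tested had log2 fold changes of 0.26 (SE 0.56) and -0.09 (SE 0.79). Averaging all 5 gave -0.03 and no call (limma adjusted p = 0.98). Its s suffix marks probes shared between transcripts or genes, and which transcripts of the cluster it detects was not analysed here.

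Several other bright members had separate arrays without passing. With so few arrays per genotype, separation can often arise without any change. It was seen in 35 of the 73 tested member probe sets, and its share over all probe sets was not determined. Here and below, separate groups therefore describe the readings and are no sign of change by themselves. Nnat, neuronatin, a paternal proteolipid of brain and endocrine cells, read 2436 and 2185 in WT, against 1731 and 1656 in Suz12KO (-0.44, SE 0.11, limma adjusted p = 0.0512). Impact, a paternal regulator of translation under amino acid stress, read 5830 and 5681 against 4503 and 4812 (-0.31, SE 0.08, adjusted p = 0.0514) on its brightest probe set. Another Impact probe set, close to the spikes, gave 0.39 (SE 0.58), and 1 more was dim. Nnat and the brightest Impact probe set lie just short of the threshold, and both did pass with the brightest probe set per gene in place of all probe sets (adjusted p 0.0320 and 0.0291), where fewer features were tested.

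At the Snrpn-Ndn locus, the region lost in Prader-Willi and Angelman syndromes in humans, 24 probe sets of 6 members were present, 20 were tested and 0 passed by limma, either way. Necdin (Ndn), a paternal MAGE family protein that restrains growth of neurons, had 8 probe sets, 5 of them bright. All 5 bright ones had log2 fold changes below 0, from -0.25 to -0.61, and the lowest adjusted p among them was 0.0779. That probe set (1435382_at) read 1160 and 1092 in WT, against 657 and 813 in Suz12KO. The 3 dim Ndn probe sets ran from -0.20 to 0.40. The 5 bright ones share a gene and are not independent.

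Snrpn, a paternal splicing protein transcribed together with Snurf, did not pass. Its brightest probe set, which lists both genes, read 12473 and 11487 in WT, against 14909 and 13317 in Suz12KO (0.24, SE 0.07, limma adjusted p = 0.114). Its other 3 bright probe sets had log2 fold changes of 0.12, -0.13 and -0.08, so they did not share a direction. Magel2, another paternal MAGE gene, read 317 and 285 against 357 and 329 (0.18, SE 0.32, adjusted p = 0.822). The ubiquitin ligase Ube3a, maternal in neurons, read 1584 and 1662 in WT, against 1227 and 1314 in Suz12KO on its brightest probe set (-0.35, SE 0.13, adjusted p = 0.167). Its other 2 bright probe sets gave -0.29 and 0.13. Mkrn3 and Peg12 were dim, with no reading above 151.

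The Kcnq1 cluster, 9 members with 17 probe sets, had 13 tested and 0 past the test by limma, either way. Its 8 bright probe sets ran from -0.54 to 0.63 with a median of -0.06. Cdkn1c, a maternal inhibitor of cyclin-dependent kinases, read 1546 and 1334 in WT, against 1584 and 1264 in Suz12KO (-0.02, SE 0.15), and the ranges overlapped fully. Phlda2, a maternal gene that limits placental growth, read 1957 and 1622 against 1724 and 1401 (-0.19, SE 0.15), and these also overlapped. With an SE of 0.15, small changes of these genes on the log2 scale could not be detected.

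Among members whose imprint in this cluster is known mainly from placenta, Cd81, a tetraspanin, read 6603 and 6432 in WT, against 5568 and 5343 in Suz12KO (-0.26, SE 0.07, limma adjusted p = 0.0791). Tssc4, a splicing-associated protein, read 927 and 1071 against 747 and 620 (-0.54, SE 0.18, adjusted p = 0.141). Nap1l4, a histone chaperone, was at -0.10 (SE 0.13). With 1 probe set per gene Cd81 passed as lower (limma adjusted p = 0.0446). The groups were separate for Cd81 and Tssc4 and overlapped for Nap1l4. Ascl2, a trophoblast transcription factor, read between 5.27 and 187 on 3 dim probe sets and could not be measured.

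Kcnq1ot1, the paternal noncoding RNA whose transcription silences the cluster in cis, had 6 probe sets, all of low signal. The brightest read 208 and 271 in WT, against 302 and 468 in Suz12KO (0.63, SE 0.37, limma adjusted p = 0.419) and the next 264 and 194 against 343 and 250 (0.35, SE 0.40). The first had separate groups and the second overlapped, and neither passed. Kcnq1, the maternal potassium channel gene that hosts it, read 116 and 278 against 288 and 247 (0.52, SE 0.49). Slc22a18, a maternal transporter, ranged from 40.1 to 267 over 2 dim probe sets.

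At the Igf2r-Airn locus the maternal receptor Igf2r, which clears Igf2 from the cell surface, did not pass. Its probe sets read 1064 and 936 against 1216 and 1092 (0.20, SE 0.15) and 723 and 928 against 765 and 794 (-0.07, SE 0.19). Airn, the paternal noncoding RNA that silences Igf2r in cis, was dim on all 5 of its own probe sets, with readings from 14.2 to 276, and on the 1 it shares with Igf2r (53.3 to 484). Slc22a2, an organic cation transporter imprinted in placenta, read 53.9 and 47.7 in WT, against 171 and 192 in Suz12KO. The groups were separate, but both WT arrays and 1 of the Suz12KO arrays lay under their spikes, so no fold is given, and the fitted difference did not pass (limma adjusted p = 0.290).

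At the Peg3 locus the paternal zinc finger gene Peg3 read 3656 and 3931 in WT, against 4257 and 4074 in Suz12KO on its brightest probe set (0.13, SE 0.08, limma adjusted p = 0.457). Its other bright probe sets gave 0.10 and 0.00065, and after centring all 3 bright Peg3 probe sets lay below 0. The paternal deubiquitinase gene Usp29 and the maternal zinc finger gene Zim1 were dim, with readings of 82.9 to 227 and 18.8 to 119.

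At the Peg10-Sgce locus Peg10, a paternal gene derived from a retrotransposon and needed for the placenta, read 701 and 862 in WT, against 536 and 454 in Suz12KO (-0.64, SE 0.22, limma adjusted p = 0.141). Its groups were separate, but the SE is wide. Sgce, paternal epsilon-sarcoglycan, read 532 and 358 against 304 and 386 (-0.34, SE 0.31), and the groups overlapped. Ppp1r9a, which encodes neurabin and is maternal in placenta, had bright probe sets at 0.09 (SE 0.27) and -0.40 (SE 0.29). Asb4 was dim, with readings up to 218.

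At the Mest locus the paternal hydrolase gene Mest read 5848 and 5542 in WT, against 5865 and 5603 in Suz12KO, a log2 fold change of 0.01 (SE 0.08), and the ranges of the genotypes were almost the same. After centring it was -0.16 (limma adjusted p = 0.373). Its neighbour Copg2, a maternal coatomer subunit, read 535 and 747 against 885 and 942 (0.52, SE 0.21, adjusted p = 0.215), with separate groups. Leaving out WT replicate 1 gave Copg2 0.28, and leaving out WT replicate 2 gave 0.75. Nap1l5, a paternal gene at a locus of its own, lay under the spikes, with a highest reading of 88.5.

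Plagl1, a paternal zinc finger factor known to act on other imprinted genes, read 3137 and 3643 in WT, against 4319 and 4186 in Suz12KO on its bright probe set (0.33, SE 0.10, limma adjusted p = 0.0871). The groups were separate. Without WT replicate 2, the higher of the WT readings, the Plagl1 value was 0.44, from a single WT array. Its 2 dim probe sets were at -0.56 and -0.72. Commd1, a maternal regulator of copper and NF-kB, was at -0.12 (SE 0.17) and 0.15 (SE 0.24) on its 2 probe sets.

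Gatm, the enzyme of the first step of creatine synthesis, maternal in placenta, had the largest fitted fall of any tested member, from dim readings. It read 231 and 212 in WT, above the spikes, and 17.7 and 35.3 in Suz12KO, below them. The groups were far apart, but the Suz12KO level is only a bound, which makes Gatm at least 1.19-fold lower. The fitted log2 fold change of -2.52 had an SE of 0.80 and did not pass (limma adjusted p = 0.119). Trappc9, a trafficking subunit maternal in brain, was dim on all 3 probe sets, with a highest reading of 313.

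**Figure D3:**
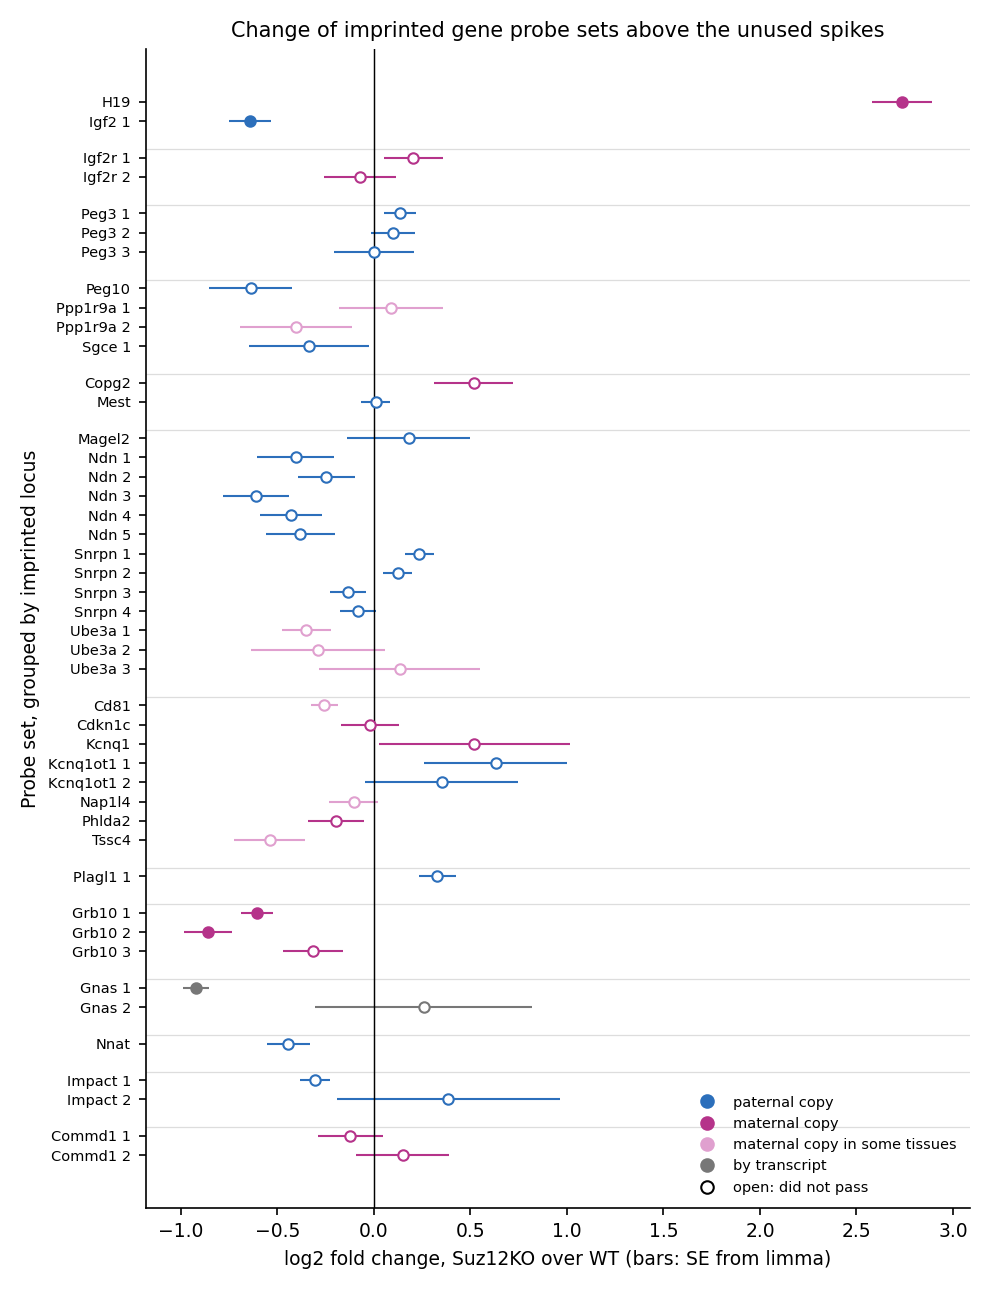
Log2 fold change, Suz12KO over WT, with its SE from limma, for the 45 bright imprinted gene probe sets, grouped by locus, coloured by expressed copy and filled where past the test. H19 stands at 2.74, the Igf2, Grb10 and Gnas falls lie between -0.60 and -0.92, and neighbours within a locus, such as Ndn and Snrpn, take different values. Numbers after a gene rank its probe sets by mean signal.

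By parental copy, the calls fell as follows. Of 36 tested probe sets of paternal genes, 0 rose and 1 fell by limma, and their median log2 fold change was -0.08. Another 16 were of genes classed here as maternal without naming a tissue, or of Grb10, which is paternal in neurons. Of these 16, 1 rose and 2 fell, both of Grb10, with a median of -0.05. Of 17 for genes classed here as maternal in placenta, brain or neurons, 0 passed by limma either way, with a median of -0.10. The other 4 were of Gnas and of the probe set shared by Airn and Igf2r, and 1 of them, of Gnas, fell. All of these stand beside a median of 0.05 over all tested probe sets, and the difference between copies was not tested. The copy is the one known from textbooks for mouse tissues, since the arrays carry no allele. Whether it holds in these embryonic stem cells was not measured, and some genes classed as maternal may be so in part of the tissues only.

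Other imprinted genes, from a separate list of 39, were represented by the brightest probe set of each gene. Of 35 on the array 30 were tested, 1 rose, 1 fell and 28 missed the threshold, and the median was 0.07. The background for brightest probe sets was 3.15% higher and 3.85% lower, 7% in all. Cobl, an actin nucleator next to Grb10, rose from 311 and 241 to 943 and 866 (log2 fold change 1.67, SE 0.24, limma adjusted p = 0.0033). Zdbf2, a paternal gene of hypothalamic growth control, fell from 1955 and 1614 to 1076 and 1196 (-0.64, SE 0.14, adjusted p = 0.0286).

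The listed regulators of imprints that passed all rose, among them factors that set or keep methylation and enzymes that remove it. Of 24 listed, 22 were on the array and 21 tested, 7 rose and 0 fell by limma, with a median of 0.19. The background for brightest probe sets was 3.15% higher and 3.85% lower. Zfp57, which binds the methylated motif at imprinting control regions, rose from 1339 and 1321 in WT to 2475 and 2709 in Suz12KO (0.95, SE 0.11, limma adjusted p = 0.000945). Its partner Trim28 rose by 0.47, Dppa3, which protects imprints in the zygote, by 0.58 and Dnmt3l, the cofactor of imprint setting in the germ line, by 1.43.

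The demethylating enzymes Tet1 and Tet2 rose by 1.20 and 1.18, and the PRC2 subunit Eed by 0.36. The maintenance methyltransferase Dnmt1 (0.25, SE 0.10, limma adjusted p = 0.209), its cofactor Uhrf1 (0.39, adjusted p = 0.0852) and the insulator protein Ctcf (-0.24, SE 0.13, adjusted p = 0.374) did not pass. Ctcf binds the unmethylated maternal control region between Igf2 and H19. The methyltransferases Dnmt3a (-0.23, limma adjusted p = 0.4965) and Dnmt3b (-0.20, adjusted p = 0.143) were below 0 and did not pass either. Transcript levels of these regulators do not measure methylation at any control region.

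Markers of other cells moved with genotype beside these members. Igf2, H19, Grb10 and several others are known to be strongly expressed in mesenchymal and extraembryonic cells. For all marker lists the background is that of brightest probe sets, 3.15% higher and 3.85% lower. Of 25 listed fibroblast markers 24 were on the array and 21 tested. Of these, 7 fell, 0 rose by limma and 14 missed the threshold, and the median was -0.72. The summed signal of the fibroblast markers was 71792 to 73080 in WT, against 19918 to 20360 in Suz12KO. Most of it came from Acta2 (mean 33799 in WT) and Tagln (20640), which are not among the defining markers. Col1a1 read 2859 and 2599 in WT, against 435 and 448 in Suz12KO, and Col1a2 and Col3a1 fell by 1.80 and 2.12 on the log2 scale. The defining markers Thy1 (0.41), Prrx1 (0.29) and Twist2 (-1.02) did not pass. Lum (1.13) and Postn were at or under the spikes in every array. Col6a2 (0.70, limma adjusted p = 0.0707) and Col6a3 (0.31) also had values above 0 without passing.

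Of 12 trophoblast markers on the array 10 were tested, 1 rose (Esx1, 2.12) and 3 fell. Their median log2 fold change was 0.31, above 0 although the summed signal was lower in Suz12KO. The summed signals were 34828 to 35842 in WT and 14132 to 14485 in Suz12KO. That sum is mostly Krt8 and Krt18, and Elf5 was under the spikes in all arrays. The defining markers Cdx2 (0.78, limma adjusted p = 0.381) and Eomes (0.54, adjusted p = 0.415) did not pass, and Tpbpa was below the filter. Of 14 endoderm markers 9 were tested, 1 rose (Lama1, 2.31) and 1 fell, with a median of -0.26. Their summed signal was 25860 to 26986 in WT and 20123 to 20536 in Suz12KO. Afp was under the spikes, and Gata4, Gata6 and Sox17 were not past the test (0.13, -0.05 and 0.80). Of 10 neural markers 8 were tested, 0 rose by limma and 3 fell, with a median of -0.25. Their summed signal was 16864 to 17326 in WT and 7412 to 8305 in Suz12KO. Pax6 (-0.12) and Tubb3 (-0.23) were not past the test, and Sox1 was below the filter. In pooled RNA, fewer cells of a type and less RNA per cell cannot be told apart, and the part of these marker shifts in the falls of Igf2, Grb10 and Gnas or the rise of H19 was not tested.

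**Figure D4:**
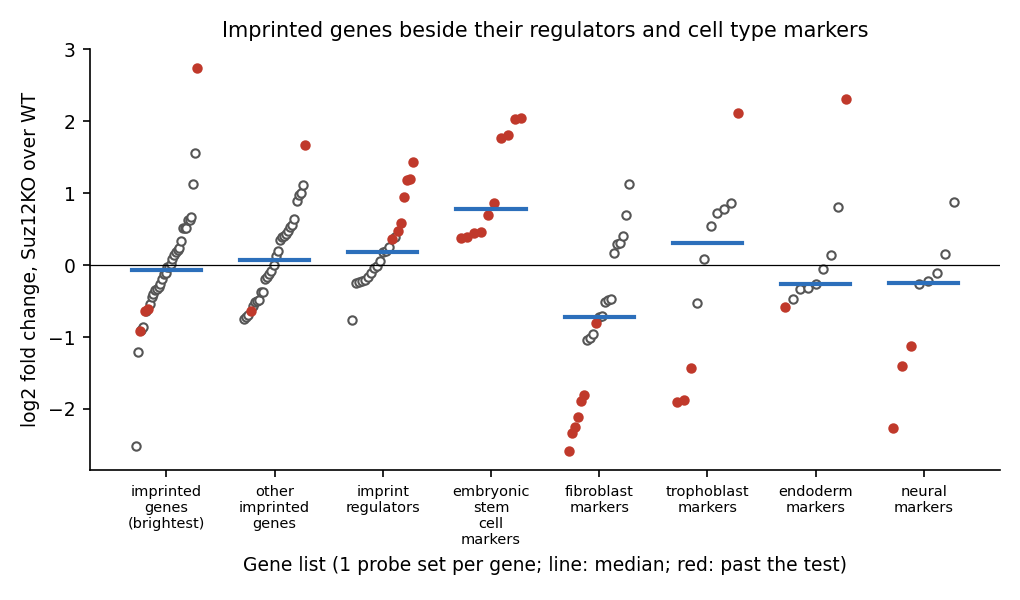
Log2 fold change, Suz12KO over WT, for the brightest tested probe set of each gene in the imprinted genes and in 7 other lists, with the median of each list as a line and genes past the test in red. The imprinted genes spread around 0 with H19 on top, 7 imprint regulators are red and above 0, and 7 fibroblast markers are red and below 0.

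The falls of Igf2, Grb10 and Gnas and the rise of H19 kept their direction under each of the alternatives in which their probe sets were fitted (13 of 16 for H19, which is dropped where several symbols or an a suffix exclude it). Leaving out any 1 array gave H19 between 2.62 and 2.85, Igf2 between -0.76 and -0.53 and Gnas between -0.98 and -0.86. The Grb10 probe sets lay between -0.68 and -0.53 and between -0.96 and -0.76. Each such fit leaves a single array in 1 genotype, so its spread comes from the other genotype alone.

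**Figure D5:**
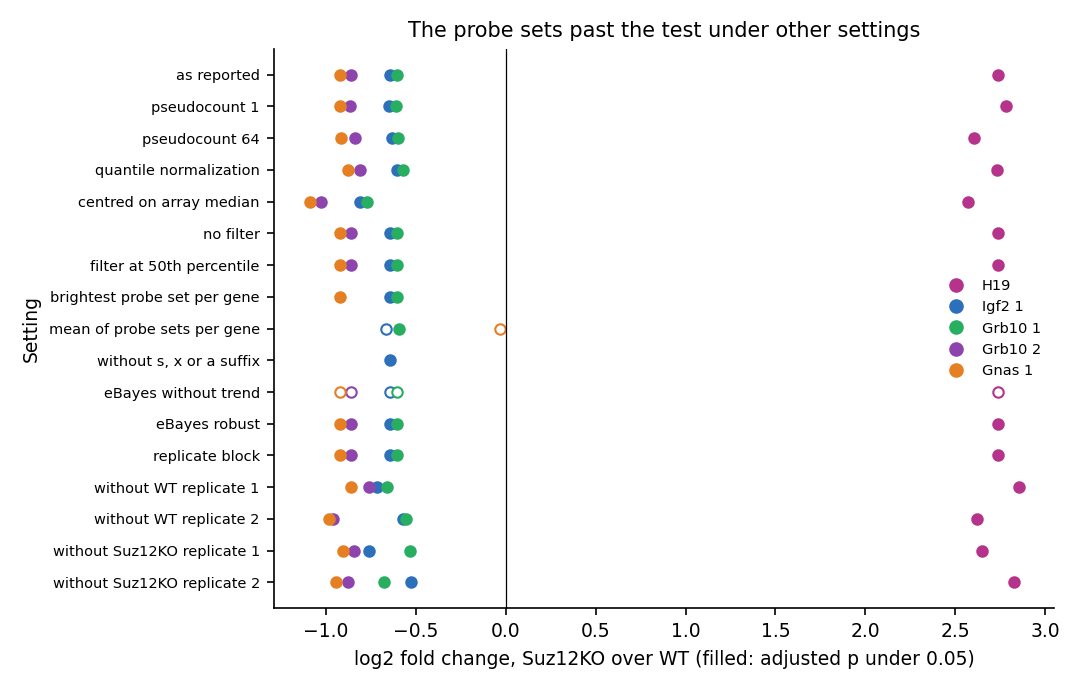
Log2 fold change, Suz12KO over WT, of the 5 probe sets past the test (horizontal axis) under each setting (vertical axis), filled where limma's adjusted p was under 0.05. H19 stays between 2.57 and 2.85, and Gnas comes close to 0 (-0.03) only where all of its probe sets are averaged.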

How the data were processed

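Transcript levels were measured on 4 Affymetrix arrays. The deposited values are probe set intensity on a linear scale, and every array has a mean of 500 without its lowest and highest 2%, so the authors' values had been scaled per array. The summarisation software counts as not given in the sources used here. Scaling of this kind cannot show a change shared by most genes. Array medians of log2 values differed by 0.22, under the limit of 0.5 for further normalization. Symbols came from the platform annotation (1 symbol for 34958 probe sets, several for 932, none for 9211).

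Values were taken as log2(signal + 16), which understates folds of dim genes. The 64 control probe sets and those whose mean level lay below the 30th percentile were dropped, and the remaining 31526 were fitted with limma 3.58.1 in R 4.3.3 (lmFit, eBayes with trend, which lets variance depend on level; two-sided p, Benjamini-Hochberg over all, calls at an adjusted p under 0.05). Background is the highest of 27 spike probe sets (Dap, Lys, Phe, Thr, Trpn) per array. An "at least" fold sets the brighter genotype's mean log2 signal against it. In simulated data for Suz12KO against WT with 31526 probe sets, 200 of them changed, 14% of 2-fold and 41% of 4-fold changes were recovered and 3 of 58 calls were false.

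The rule for named genes took all members, probe sets past the test in full and the others by their brightest probe set or ranges, Suz12, the called genes of the lists of other imprinted genes and of regulators (up to the 6 largest each way) and the defining cell markers. Eed, Uhrf1, Dnmt1, Dnmt3a, Dnmt3b, Ctcf, Krt8, Krt18, Esx1, Lama1, Acta2, Tagln, Col6a2, Col6a3 and the bright class were picked after values were seen. Members, lists and tests were chosen with earlier results of these data known. Alternatives were the pseudocount (1, 64), quantile normalization, centring, the filter (none, 50th percentile), 1 probe set or a mean per gene, no s, x or a suffix, eBayes without trend or robust, a replicate block and leaving out each array. Plots used matplotlib 3.10.9 (Python 3.11.15).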

Additional observations from a re-analysis of the deposited data

How the results depend on the processing

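With 2 arrays a genotype and mixed RNA, precision is limited to the spread between arrays, and signal over background limits the 12 members that have only dim probe sets. Over the 16 alternatives, 30 values of bright member probe sets changed sign and 602 kept direction and call, while 20 gained a call and 7 lost it. None of the sign changes was of a probe set past the test. Counts over all probe sets (766 higher, 993 lower) and over member probe sets (1 higher, 4 lower) moved as follows. Centring each array on its median gave 379 and 1624, and 8 lower member probe sets. Taking the brightest probe set per gene gave 0 higher members, since the H19 probe set lists 2 symbols and is left out. Averaging the probe sets of each gene gave 305 and 306, with 0 and 1 members. Leaving out suffixes s, x and a gave 482 and 643, with 0 and 2. Without the trend limma called 0 and 0, with 0 and 0 members and 4193 probe sets at an unadjusted p under 0.05. The replicate block gave 1340 and 1564, with 3 and 8. Arrays with the same number deviated with a correlation of 0.002, so the numbers do not pair them. Leaving out 1 array gave 452 to 769 higher probe sets (452 without Suz12KO replicate 1, 460 without Suz12KO replicate 2) and 1 to 2 higher members.

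Uncalled values that changed sign were these. After centring, the Peg3 log2 fold changes were -0.0328, -0.0676 and -0.17, Ppp1r9a -0.0785, Mest -0.16, Snrpn -0.044, Ube3a -0.0341 and Commd1 -0.0183. With the mean of probe sets Sgce was 0.80, Ppp1r9a -0.50, Ube3a 0.0175, Plagl1 -0.32 and Commd1 0.0131, and with quantile normalization Cdkn1c was 0.0337. Leaving out 1 array gave Igf2r -0.25 to 0.11, Peg3 -0.28 to 0.28, Ppp1r9a -0.14 to 0.32, Mest -0.0288 to 0.0485, Ube3a -0.15 to 0.42, Cdkn1c -0.18 to 0.14, Kcnq1 -0.0574 to 1.10, Nap1l4 -0.29 to 0.0771, Gnas -0.51 to 1.02, Impact -0.45 to 1.23 and Commd1 -0.35 to 0.11, each for 1 probe set. Apart from the loss of H19 where 2 symbols exclude it, the cause of these changes was not tested.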
